A study of Mus musculus with 8 samples.

Results

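Retinoids, the vitamin A derivatives, are handled in tissue by carriers, an uptake receptor, enzymes and nuclear receptors, and 7 genes of that system were followed across the vascular cells of mouse mesentery and epididymal fat. They were Rbp7, Rbp4, Cyp26b1, Stra6, Aldh1a1, Rarb and Rarg, 7 of the 30406 gene identifiers found in every library, taken by symbol and matched between the runs by identifier. The genes were chosen by symbol with measured levels of these libraries in view. One such value was the fall of Cyp26b1 on high fat diet in adipose endothelium. It is known to have stood behind the choice, so it is given as values with no test. No p-value of any of the 7 genes is independent support, and the tissue comparisons of Cyp26b1 use the same adipose levels. Summed over all endothelial cells, Cyp26b1 was lower and Rbp7 higher on high fat diet in both tissues and both runs. Rbp7 did not rise in every endothelial class and was lower in cells with lymphatic markers. The endothelial counts of Stra6 lay mostly in 2 small clusters of mesenteric cells, and Rbp4 in endothelial cells followed the adipocyte marker genes.

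The libraries were single-cell RNA sequencing of sorted endothelial cells. All 4 groups came from male ROSA26-eYFP+/+ Cdh5-CreERT2+ mice, whose endothelial cells carry a yellow fluorescent protein once tamoxifen has activated a recombinase driven by the endothelial Cdh5 promoter. Every mouse, controls included, was fed tamoxifen in its diet during 2 weeks, beginning at 6 weeks old. Chow with 5.8% fat or a high fat diet with 60% fat followed at 8 weeks old and was kept up during 12 to 13 weeks. The 4 groups combine mesentery or adipose (epididymal fat) with either diet. Each had 2 libraries, called run A and run B because the labels give the experiment as repeated. Each library was 1 pool of 6 mice, so a p-value measures the spread between pools. Tissue was digested with actinomycin D present, a blocker of transcription, and fluorescent cells were sorted with about 5000 cells targeted per library.

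Retinol travels in plasma bound to Rbp4 and enters cells through Stra6, the receptor for that complex. Inside cells, small binding proteins such as Rbp7 hold retinol, and Aldh1a1 oxidises retinaldehyde to retinoic acid. Retinoic acid switches on genes through the nuclear receptors of the Rar family, among them Rarb and Rarg, and is broken down by Cyp26 enzymes such as Cyp26b1. Rarb is a textbook target of its own ligand, through a direct repeat of a half-site in its promoter.

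The genes lie apart on the GRCm38 (mm10) assembly. Rbp7 (ENSMUSG00000028996) is at chr4:149449687-149454978 on the minus strand, and Cyp26b1 (ENSMUSG00000063415) at chr6:84571414-84593908 on the minus strand. Stra6 (ENSMUSG00000032327) is at chr9:58063788-58153996 on the plus strand, Rarb (ENSMUSG00000017491) at chr14:16430839-16819156 on the minus strand, and Rarg (ENSMUSG00000001288) at chr15:102234938-102257517 on the minus strand. Aldh1a1 (ENSMUSG00000053279) at chr19:20492715-20643465 on the plus strand and Rbp4 (ENSMUSG00000024990) at chr19:38116629-38125281 on the minus strand share a chromosome.

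Promoter sequence is shown for Cyp26b1 and Rbp7, on whose diet differences the results turn, and for the textbook target Rarb. Windows from 250 bases before to 50 bases after each start were taken from RefSeq (GRCm38.p6), which held 13 windows for the 7 genes. Each was searched on both strands for 2 copies of a half-site (AGGTCA or its variants, which are AGTTCA and then GGGTCA and also GGTTCA) in the same orientation with 1, 2 or 5 bases between them, the spacings used by retinoic acid receptors. Overlapping matches were allowed. Capitals mark the half-sites of a repeat, and all stretches read 5′ to 3′ on the gene's strand. The Rarb stretch is chr14:16575508-16575534, 58 to 32 bases before the start and inside an exon of another annotated transcript. The other stretches end before the first annotated exon: Cyp26b1 is chr6:84593909-84594060 and Rbp7 is chr4:149454979-149455218.
Rarb: ggaagGGTTCAccgaaAGTTCActcgc
Cyp26b1: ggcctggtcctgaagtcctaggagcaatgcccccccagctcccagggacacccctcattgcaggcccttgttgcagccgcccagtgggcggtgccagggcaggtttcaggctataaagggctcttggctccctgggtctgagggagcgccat
Rbp7: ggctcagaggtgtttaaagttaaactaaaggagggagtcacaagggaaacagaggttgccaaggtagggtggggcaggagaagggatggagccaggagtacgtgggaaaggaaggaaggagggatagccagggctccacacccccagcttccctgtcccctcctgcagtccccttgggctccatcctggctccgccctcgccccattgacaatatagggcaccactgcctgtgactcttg

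The Rarb window held 1 repeat with 5 bases between its half-sites, and the 12 other windows of the 7 genes held none with any of the 3 spacings. Of 32851 windows of this length over all genes, 0.097% held a repeat with 5 bases, 0.268% with 2 bases and 0.222% with 1 base. A single half-site was in 43.7% of all windows and in neither the Cyp26b1 nor the Rbp7 window.

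The 8 libraries held 27944 barcodes, of which 23078 were kept after limits of 500 counts, 300 genes and 10% mitochondrial counts and after removal of 892 called doublets. Run B was deeper, with 18829960 to 36779289 total counts (unique molecules) per library against 3461360 to 6714473 in run A, and the mitochondrial limit removed 5.4% to 9.0% of barcodes in run B and 22.8% to 30.8% in run A. Libraries shared 0 to 10 cell barcodes in a pair. The sort held 17786 endothelial cells by Pecam1, Cdh5 and 8 further markers, of which 2714 were arterial-like, 5489 capillary-like, 3224 venous-like, 2481 lymphatic-like and 162 proliferating-like, and 3716 were in clusters given no class. The other barcodes were adipocyte-like, fibroblast-like, mural-like and immune cells, and 727 in 2 clusters with endothelial markers beside adipocyte or mural ones were left out of the endothelial sums. The capillary-like class held 30 to 156 cells per library in run A and 919 to 2256 in run B. Neither the 7 genes nor the wider retinoid list entered the clustering.

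Levels are counts per 1000000 (CPM) of the counts summed over a class in a library. Intervals are exact 95% Poisson or binomial intervals and cover counting error only. Summed counts of all 8 libraries went into edgeR's quasi-likelihood test, with Benjamini-Hochberg adjustment over all genes tested and calls at an adjusted p under 0.05. As first fitted, without the run, edgeR called 0 genes in any of 5 comparisons in any of 3 cell sets (0% of 13326 genes in all endothelial cells, of 9039 in arterial-like and of 10440 in capillary-like cells). At an unadjusted p under 0.05 it had 6 to 518 genes per comparison, DESeq2 called 0 to 88 and limma-voom called 0. Same-run libraries deviated together in every pair of groups, so a second fit, in which the run is a block, stands beside it below. All calls named below come from that blocked fit unless another is named.

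**Figure D1:**
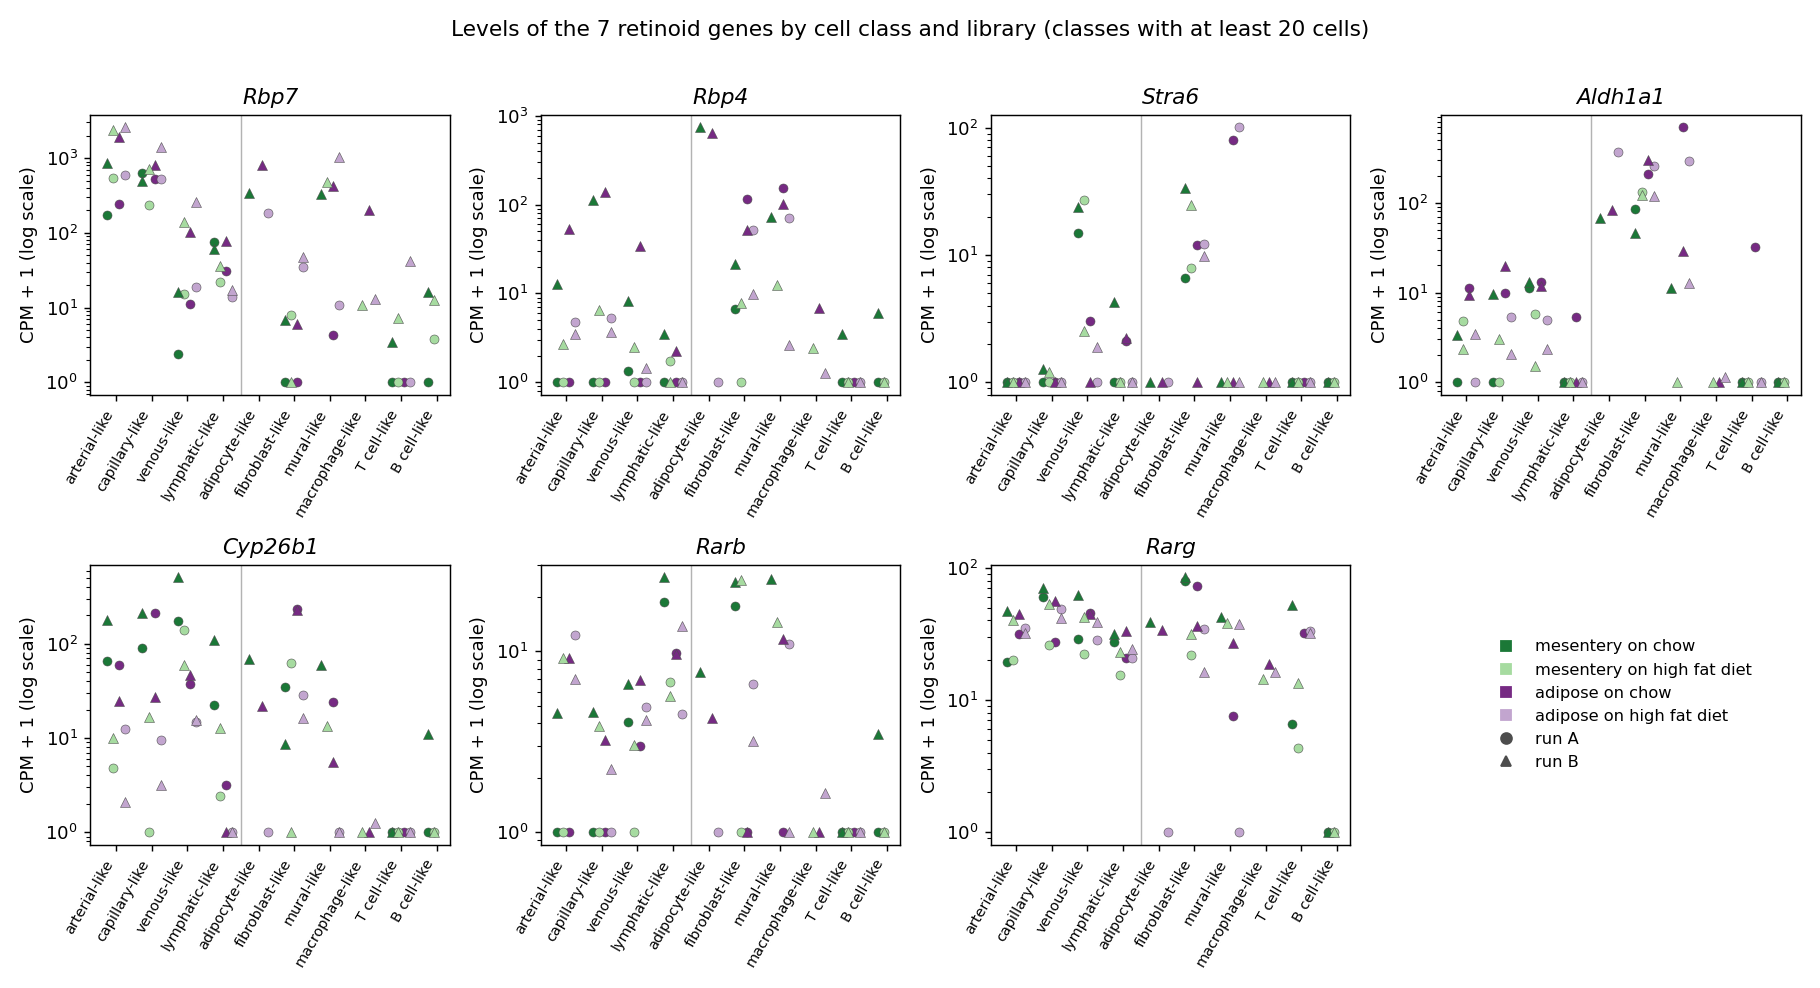
CPM + 1 (log axis) of each gene, 1 point per cell class and library with at least 20 cells, coloured by group and shaped by run; endothelial classes lie left of the line. Rbp7 is highest in arterial-like and capillary-like cells, Cyp26b1 in mesenteric venous-like cells on chow of run B, Rbp4 in adipocyte-like cells, and Rarg is spread over the endothelial classes.

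Among the carriers, Rbp7 marked arterial-like and capillary-like cells and was higher there on high fat diet in most library pairs. In arterial-like cells it was at 170.6 CPM (run A) and 849.1 CPM (run B) in mesentery on chow, and at 534.5 and 2396 CPM on high fat diet. In adipose arterial-like cells it was at 239.1 and 1919 CPM on chow and at 585.4 and 2584 CPM on high fat diet. Within each run both high fat diet libraries were above both chow libraries, while run B was above run A in every group, so the pooled groups overlap. In capillary-like cells it stood at 622.0 and 494.3 CPM in mesentery on chow and at 237.1 and 712.6 CPM on high fat diet, lower in run A and higher in run B. Adipose capillary-like cells had 532.4 and 803.9 CPM on chow and 530.4 and 1412 CPM on high fat diet. Run A here rests on 19 to 123 counts per library. In adipose of run B the cluster led by Cxcl9 and Timp4 held 1621 of 2256 capillary-like cells on chow and 37 of 1046 on high fat diet, with the cluster led by Car4 and Cd300lg holding the rest. Within the Cxcl9 cluster Rbp7 was 1.20-fold higher on high fat diet and within the Car4 cluster 1.22-fold higher, against 1.76-fold in the class.

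After each cell was thinned to 1000 counts, 55.8% of arterial-like cells held an Rbp7 count (interval 53.8% to 57.7%, 67.4% unthinned), and 40.4% of capillary-like cells did. The share was 4.23% in venous-like and 3.22% in lymphatic-like cells. T cell-like cells, which should lack the gene, had 1 of 400 cells with a count, at a median depth of 3200 counts against 3917 in arterial-like cells. Other classes of the sort held it too, with 31.5% of adipocyte-like and 24.8% of mural-like cells after thinning. The mean level of the 10 endothelial markers (log scale) was 0.605 and 0.623 in these 2 classes. It was 0.078 in T cell-like cells, and the limit for an endothelial cluster was 0.75. How far Rbp7 in these classes goes with those markers was not tested. Mural-like Rbp7 was at 325.9 to 1034 CPM in run B and at 3.28 and 9.98 CPM in the 2 adipose libraries of run A.

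Arterial-like cells fell into 2 clusters that differed in Rbp7. The cluster led by Slc6a6, Col8a1 and Hey1 had 2433 CPM over all libraries and the one led by Gkn3, Igf2 and Gja5 had 1064 CPM. The cluster led by Cytl1, Klk10 and Mgp, with Eln (elastin) among its leading genes, raised 6 arterial markers but was given no class because more of its leading genes mark another class, and 1 of 438 of its cells held an Rbp7 count after thinning. Another unnamed endothelial cluster, led by Fabp5 and with low counts per cell, held Rbp7 among its leading genes at 1498 CPM.

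**Figure D2:**
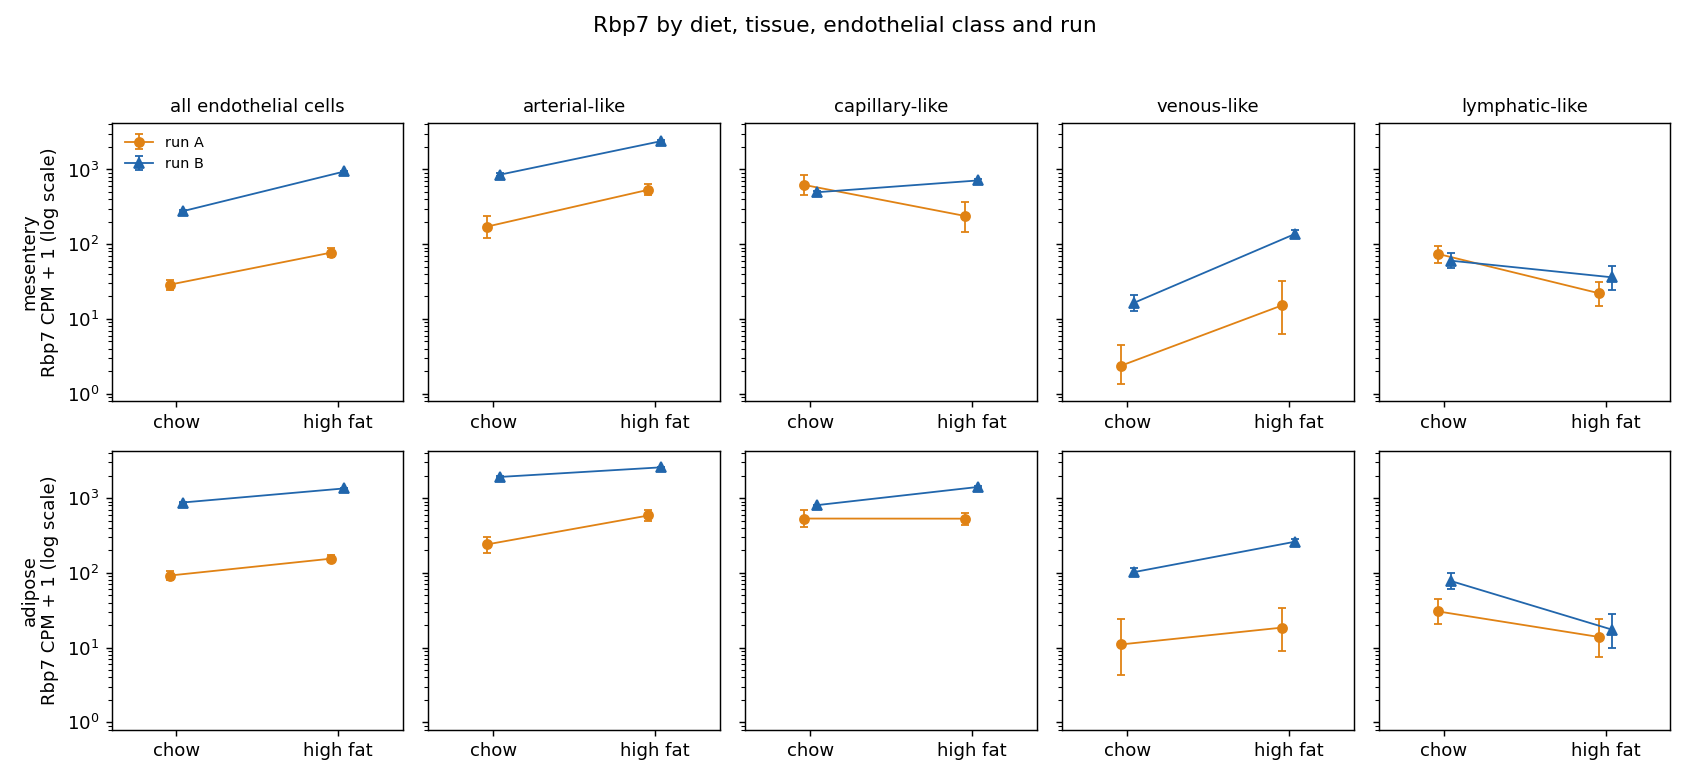
Rbp7 CPM + 1 (log axis) on chow and high fat diet, by tissue (rows), endothelial class (columns) and run (colour), with exact 95% Poisson intervals from counting error. Lines go up in arterial-like and venous-like cells in both runs, go down in lymphatic-like cells and differ in direction between runs in mesenteric capillary-like cells.

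With the run as a block, Rbp7 rose in mesenteric arterial-like cells on high fat diet by 1.57 ± 0.23 on the log2 scale (edgeR, SE, adjusted p = 0.000422), with folds of 3.13 in run A and 2.82 in run B. Of the 4 of 7 genes that passed the filter on low counts in arterial-like cells, 2 were called in this comparison, where 0.62% of all genes were called. The call held in 7 of 8 fits that left out 1 library and was lost without mesentery on chow of run B (adjusted p = 0.0983). It was also lost in the larger arterial-like cluster alone (1.11, adjusted p = 0.334), where levels were 407.6 and 1273 CPM on chow and 942.4 and 2523 CPM on high fat diet. Without the block the same change was 1.51 ± 1.15. In adipose arterial-like cells the change was 0.81 ± 0.22 (adjusted p = 0.221), with folds of 2.45 and 1.35.

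Over all endothelial cells Rbp7 was at 27.8 and 275.3 CPM in mesentery on chow and 76.4 and 939.7 CPM on high fat diet. Adipose cells had 91.2 and 873.3 CPM on chow and 154.3 and 1349 CPM on high fat diet. Every run showed the same order of chow below high fat diet and, on chow, of mesentery below adipose. On chow Rbp7 was lower in mesentery than in adipose, with a log2 change of -1.67 ± 0.20 (edgeR, adjusted p = 0.0316), as 1 of 2 of the 7 genes called there against 0.398% of all genes. That call was lost without each of the 4 adipose libraries in turn (adjusted p from 0.0601 to 0.414), while the change stayed between -1.75 and -1.59. Within classes this tissue difference was not called. It was -0.92 ± 0.23 in arterial-like cells (edgeR with the block, adjusted p = 0.051). In capillary-like cells it was -0.305 ± 0.329, and run A went the other way. The diet change of Rbp7 in mesentery, over all endothelial cells, was 1.62 ± 0.19 and missed the threshold (adjusted p = 0.062). There 0 of the 7 genes were called beside 0.075% of all genes. Sums over all endothelial cells also move with the mix of classes. Arterial-like cells were 5.5% and 12.4% of the endothelial cells of mesentery on chow against 13.5% and 22.1% on high fat diet. In adipose on chow they were 13.2% and 15.8%. Capillary-like cells were 2.3% and 26.4% in mesentery on chow against 7.3% and 53.2% in adipose on chow. The part of these shifts in the sums was not tested.

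The classes with little Rbp7 moved in opposite directions. In venous-like cells it went from 1.36 to 14.3 CPM (run A) and from 15.4 to 136.9 CPM (run B) in mesentery, and from 10.0 to 17.6 and from 101.2 to 260.7 CPM in adipose. In lymphatic-like cells it stood at 73.4 and 59.3 CPM on chow against 21.0 and 35.1 CPM on high fat diet in mesentery, and at 29.6 and 77.2 against 12.9 and 16.4 CPM in adipose. All 4 pairs of libraries pointed up in the first class and down in the second. These 2 classes were described with no test.

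Rbp4, the plasma carrier of retinol made by liver and fat cells, was found in endothelial cells almost only in the chow libraries of run B. Over all endothelial cells it had 523 counts (31.7 CPM) in mesentery and 2546 counts (99.9 CPM) in adipose in those 2 libraries. The other 6 libraries had 0 to 47 counts (0 to 3.66 CPM). Adipocyte-like cells of the same libraries had 741.0 and 646.3 CPM, and 860 of all 919 adipocyte-like cells came from them.

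The 8 adipocyte markers (Adipoq, Cfd, Car3, Plin1, Retn, Cidec, Lep and Plin4) moved with Rbp4. Their summed level in endothelial cells was 1441 and 3743 CPM in the chow libraries of run B, 57.9 and 156.9 CPM in its high fat diet libraries and 4.7 to 22.0 CPM in run A. In adipose on chow of run B, endothelial cells had 2.67 Rbp4 counts per 100 adipocyte marker counts, adipocyte-like cells 2.71 and the mixed endothelial and adipocyte cluster 2.83. In mesentery on chow of run B the same ratios were 2.20, 2.38 and 2.55. In adipose on chow of run B the ratio was also near that value in arterial-like (2.62), capillary-like (2.66) and mural-like cells (2.72). It was 0.65 in lymphatic-like cells, on 1 Rbp4 count, and 83.3 in fibroblast-like cells, on 10 counts. Away from the endothelium Rbp4 was also found where these markers were low. In adipose on chow of run A it was at 154.0 CPM (47 counts) in mural-like cells, 115.8 CPM (21 counts) in fibroblast-like cells and 153.3 CPM (96 counts) in the cluster led by Acta2 and Slc38a5, with marker sums of 29.5 CPM and 5.5 CPM in the first pair.

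**Figure D3:**
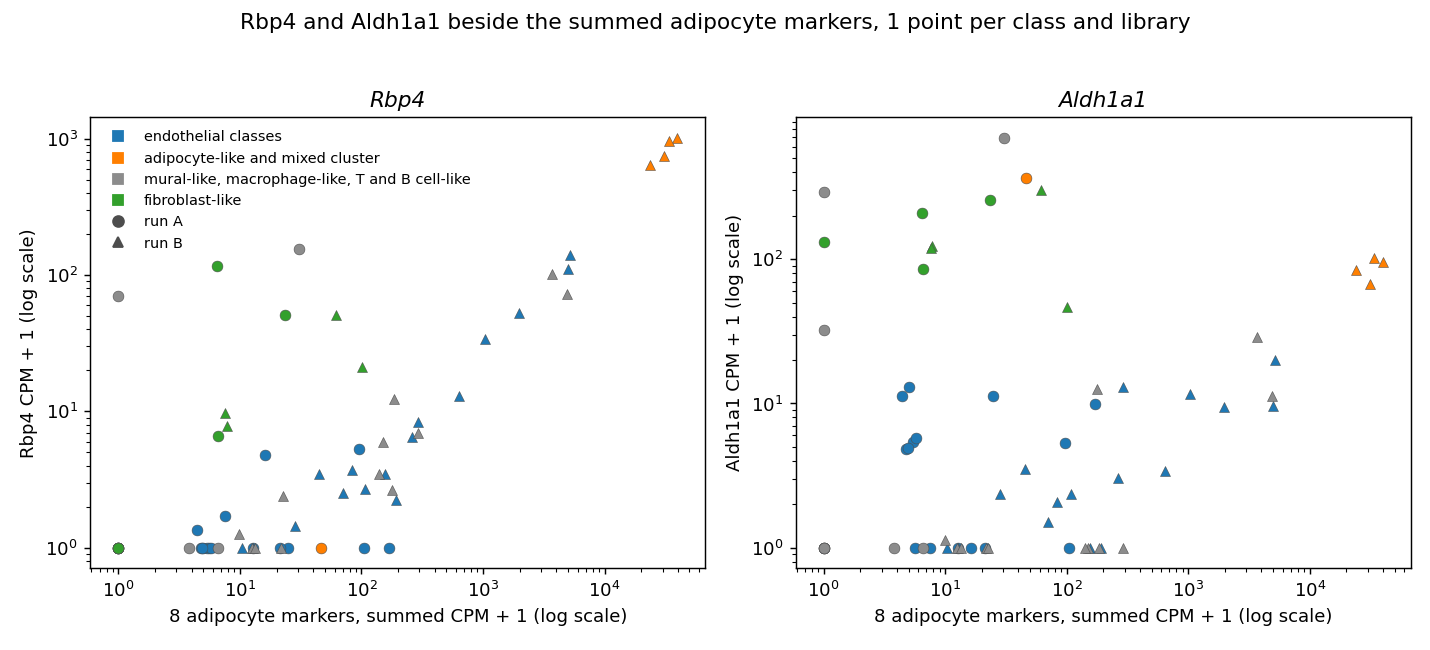
CPM + 1 of Rbp4 (left) and Aldh1a1 (right) against the summed CPM + 1 of 8 adipocyte markers, both axes logarithmic, 1 point per class and library with at least 20 cells, shaped by run. Rbp4 goes up with the markers over arterial-like, capillary-like, venous-like and adipocyte-like points of run B; fibroblast-like and run A mural-like points lie above that trend.

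The chow libraries of run B therefore carried the called falls of Rbp4, which are given with that marker level beside them. On high fat diet Rbp4 fell by 5.40 ± 0.57 on the log2 scale in adipose capillary-like cells (2122 counts on chow and 15 on high fat diet in run B, 0 and 1 in run A; edgeR, adjusted p = 9.68e-14) and by 4.27 ± 0.53 in mesenteric ones (426 and 27 counts in run B, 0 and 0 in run A; adjusted p = 2.61e-10). The log2 change was -4.0 ± 0.58 in adipose arterial-like cells (207 and 7 counts in run B, 0 and 1 in run A; adjusted p = 0.000145). On chow it was lower in mesenteric than in adipose arterial-like cells (-2.05 ± 0.50, adjusted p = 0.0412). The capillary-like calls were lost without either run B library of their comparison (adjusted p from 0.986 to 1), and the adipose arterial-like call without its high fat diet library of run B (adjusted p = 0.991). The direction turned too. The adipose capillary-like change was 2.66 ± 10.7 without the chow library of run B and 6.42 ± 5.86 without the high fat diet one. The mesenteric capillary-like change was 3.49 ± 17.6 without the chow library of run B and -7.13 without the high fat diet one, and the adipose arterial-like change was 4.42 ± 3.81. The tissue call was lost without mesentery on chow, mesentery on high fat diet or adipose on high fat diet of run B (adjusted p = 0.902, 0.162 and 0.187). Without adipose on chow of run B, Rbp4 did not pass the filter in arterial-like cells, so neither arterial-like call could be refitted. With the block, limma-voom called none of the 4 Rbp4 differences. DESeq2 with the block called none of the 3 falls and gave no adjusted p for the tissue difference.

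Stra6, the uptake receptor for retinol, was in few endothelial cells, and nearly all of those were mesenteric. Of its 254 counts in endothelial cells, 219 (86.2%) lay in 2 clusters with Glycam1 and Madcam1 among their leading genes, which held 390 cells or 2.19% of the endothelial cells. Glycam1 and Madcam1 encode ligands by which lymphocytes leave the blood at high endothelial venules. The first cluster, venous-like and with the enzyme Fut7 that completes such ligands among its leading genes, had Stra6 at 88.9 CPM (35 counts) and 116.5 CPM (90 counts) in mesentery on chow and 56.2 CPM (10 counts) and 37.5 CPM (3 counts) on high fat diet. The second, unnamed and led by Coch and Bmp2, had 88.7 and 43.3 CPM on chow (21 and 54 counts), 30.7 CPM on high fat diet in run A (4 counts) and 0 counts in its single cell in run B. The arterial-like class had 0 Stra6 counts in all 8 libraries, at 0 of 2543 cells after thinning, with an exact upper limit of 0.14%.

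Over all endothelial cells Stra6 had 63 and 164 counts in mesentery on chow (12.1 and 9.94 CPM), 15 and 7 on high fat diet (5.91 and 0.54 CPM), and 2, 1, 0 and 2 in the adipose libraries. All mesenteric libraries but that of high fat diet in run B were far above the adipose ones. The difference between tissues on chow was 5.92 ± 1.11 on the log2 scale with the block and missed the threshold (edgeR, adjusted p = 0.0788), while DESeq2 with the block called it (adjusted p = 0.000385). The 2 clusters held 42 and 49 cells in mesentery on chow of run A, 63 and 187 in run B, 19 and 19 on high fat diet in run A, and 8 and 1 in run B. Outside the endothelium Stra6 was at 5.63 to 32.8 CPM in fibroblast-like cells of mesentery and at 78.7 and 99.8 CPM in mural-like cells of the adipose libraries of run A.

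**Figure D4:**
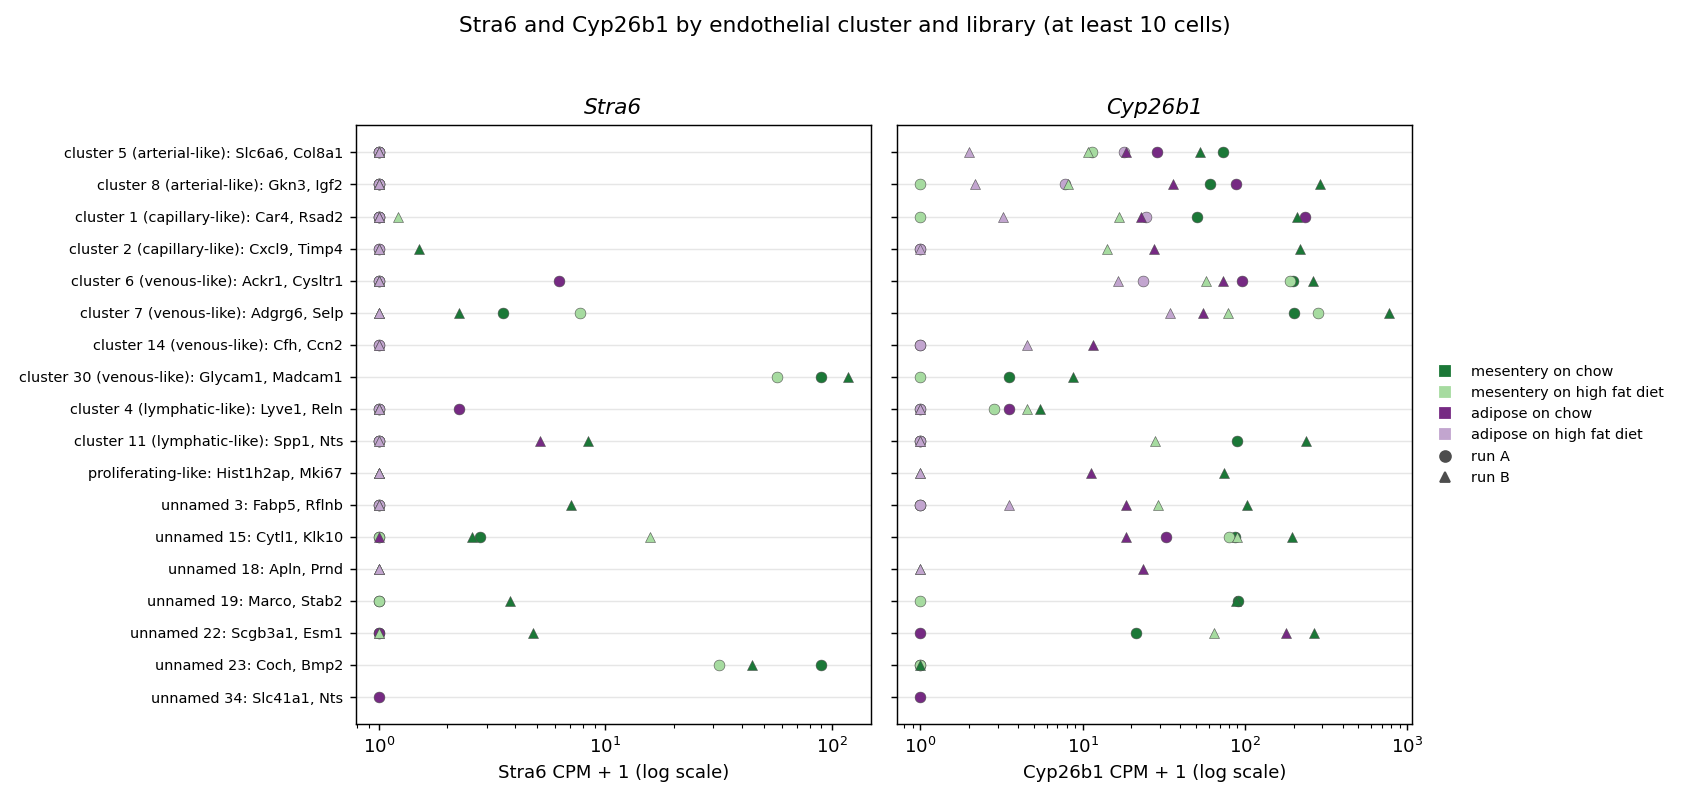
CPM + 1 (log axis) of Stra6 (left) and Cyp26b1 (right) in each endothelial cluster, 1 point per library with at least 10 cells, coloured by group and shaped by run; rows give the cluster, its class and its 2 leading genes. Stra6 is near 100 CPM in the cluster led by Glycam1 and Madcam1 on chow, and Cyp26b1 peaks in the cluster led by Adgrg6 and Selp in mesentery on chow.

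Aldh1a1, which makes retinoic acid, was mostly outside the endothelium. Fibroblast-like cells had 45.3 to 301.9 CPM over the 8 libraries, and 10.8% of them held a count after thinning against 0.58% of endothelial cells. An unnamed cluster with Acta2, Slc38a5 and Myh11 among its leading genes, found only in adipose of run A, had 450.3 CPM on chow and 483.7 CPM on high fat diet. Mural-like cells of the adipose libraries of run A had 691.5 and 289.4 CPM, and those of run B 27.7 and 11.6 CPM.

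In endothelial cells Aldh1a1 was at 5.75 and 5.46 CPM in mesentery on chow and 1.18 and 1.24 CPM on high fat diet. Adipose cells had 7.48 and 14.95 CPM on chow and 2.50 and 1.29 CPM on high fat diet. Each chow library was above each high fat diet library in both tissues. Counts were low, at 3 to 90 per mesenteric library. The change in adipose was -2.83 ± 0.51 on the log2 scale with the block (edgeR, adjusted p = 0.30), and DESeq2 with the block called it (adjusted p = 0.0486). In adipose capillary-like cells Aldh1a1 fell by 3.71 ± 0.87 (290 counts on chow and 6 on high fat diet in run B, 1 and 1 in run A; adjusted p = 0.00462), a call that DESeq2 and limma-voom with the block did not make (adjusted p = 1.0 and 0.319). It was lost at a clustering resolution of 2.0 (-3.64, adjusted p = 0.0565). It held without each library of run A in turn, and without any 1 library of run B the gene did not pass the filter. The same library carried the adipocyte markers, and its capillary-like cells had 0.36 Aldh1a1 counts per 100 marker counts against 0.35 in its adipocyte-like cells. In its venous-like cells the ratio was 1.04, and in those of mesentery on chow of run B it was 4.15.

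Cyp26b1, which clears retinoic acid, had its lower level on high fat diet in each run and tissue. In all endothelial cells it was at 119.2 CPM (622 counts) and 243.0 CPM (4007 counts) in mesentery on chow and at 27.2 CPM (69 counts) and 20.8 CPM (267 counts) on high fat diet. In adipose it was at 31.4 CPM (63 counts) and 27.5 CPM (702 counts) on chow and at 6.01 CPM (12 counts) and 3.58 CPM (50 counts) on high fat diet. The 2 diets did not overlap within either tissue, and the chow to high fat diet ratio was 4.38 and 11.7 in mesentery and 5.22 and 7.69 in adipose (run A and run B). Within each diet mesentery was above adipose in both runs, 3.79-fold and 8.82-fold on chow and 4.52-fold and 5.80-fold on high fat diet.

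Among the named endothelial classes of mesentery, venous-like cells had the highest level in all 4 libraries. It was 173.0 and 508.4 CPM on chow there, against 36.1 and 46.2 CPM in adipose venous-like cells. After thinning, 15.1% and 35.3% of mesenteric venous-like cells on chow held a count. T cell-like cells had 0 of 400 cells with a count after thinning, which allows a share of up to 0.92%. A venous-like cluster led by Adgrg6 and Selp, which also had Nkx2-3 and Sele among its leading genes, held 41.2% of all endothelial Cyp26b1 counts in 6.48% of the endothelial cells. It was at 199.8 and 769.2 CPM in mesentery on chow. The unnamed cluster led by Scgb3a1 and Esm1 had 266.4 CPM in mesentery on chow of run B and 178.8 CPM in adipose on chow of run B. The Glycam1 cluster that held Stra6 had little Cyp26b1, and the other Stra6 cluster had 0 counts in mesentery on chow.

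**Figure D5:**
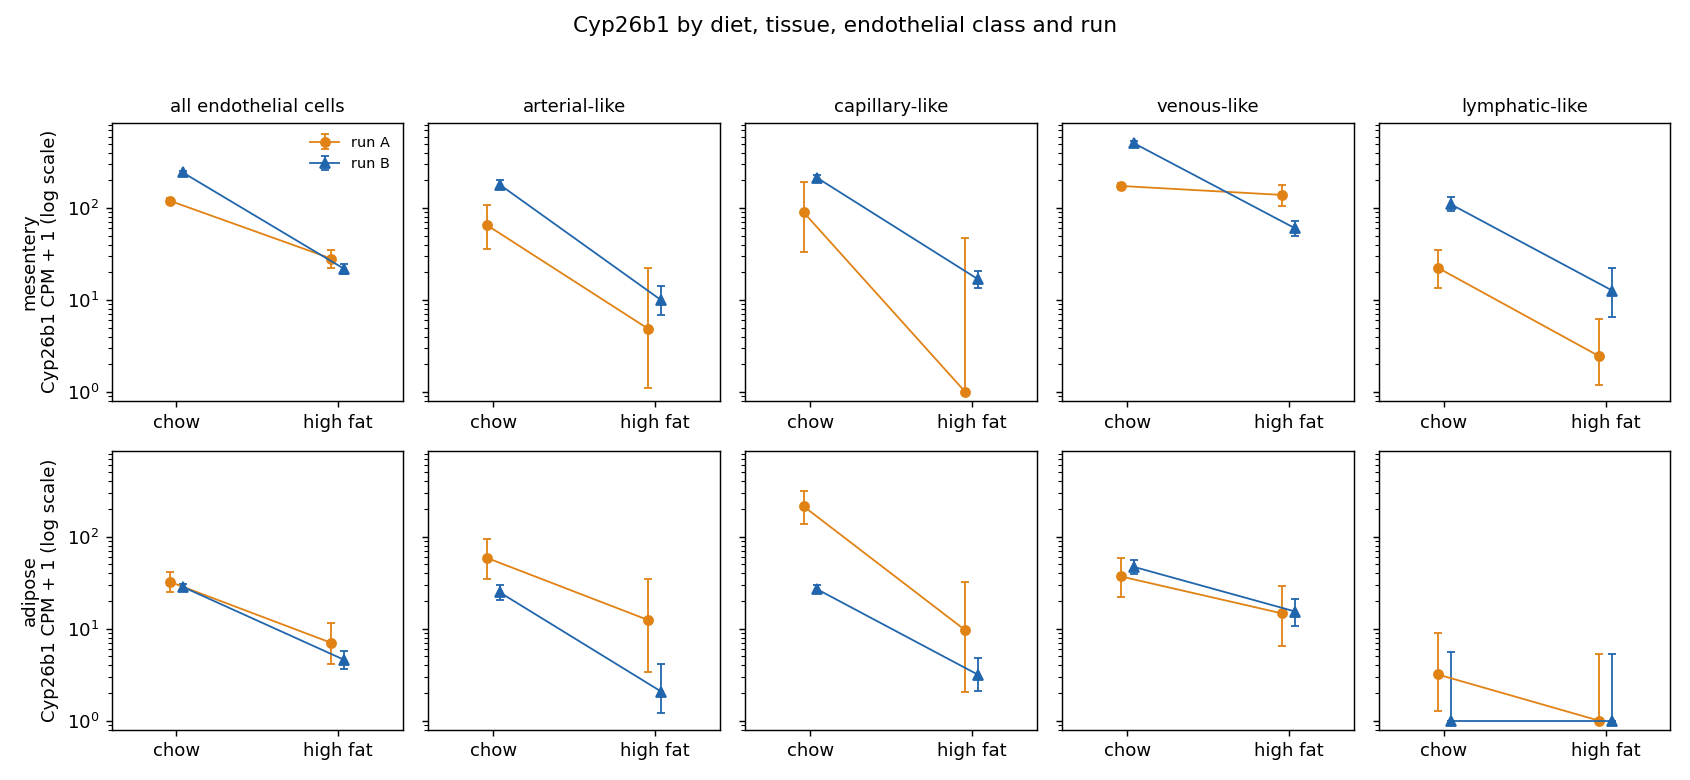
Cyp26b1 CPM + 1 (log axis) on chow and high fat diet, by tissue (rows), endothelial class (columns) and run (colour), with exact 95% Poisson intervals from counting error. Lines go down in all endothelial cells and in arterial-like and capillary-like cells of both tissues and runs; mesenteric venous-like cells of run A go from 173.0 to 138.0 CPM.

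The diet difference was present within each class tested. In mesenteric arterial-like cells Cyp26b1 was at 64.6 CPM (14 counts) and 179.1 CPM (301 counts) on chow and 3.85 CPM (1 count) and 8.94 CPM (26 counts) on high fat diet. It fell by 4.09 ± 0.47 on the log2 scale (edgeR with the block, adjusted p = 5.73e-06), a call that limma-voom with the block made (adjusted p = 0.0149) and DESeq2 with the block did not (adjusted p = 0.366). In mesenteric capillary-like cells it was at 88.9 CPM (6 counts) and 213.9 CPM (826 counts) on chow and 0 CPM (0 counts) and 15.8 CPM (77 counts) on high fat diet. It fell by 3.45 ± 0.43 (adjusted p = 3.37e-10), which neither DESeq2 nor limma-voom called with the block (adjusted p = 0.695 and 0.843). Among capillary-like cells 5 of 7 genes passed the filter and 2 were called, Cyp26b1 and Rbp4, beside 0.929% of all genes. Within the cluster led by Car4 and Cd300lg alone the capillary-like fall was 3.31 (adjusted p = 8.87e-12), while the larger arterial-like cluster alone gave -2.36 (adjusted p = 0.33). Both calls were lost without either mesenteric library of run B (adjusted p from 0.0524 to 1). The capillary-like change was then -0.69 without the chow library and -13.3 ± 4.09 without the high fat diet one, and the arterial-like change -2.05 and -5.17.

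In all endothelial cells of mesentery the fall was 2.95 ± 0.36 with the block and missed the threshold (edgeR, adjusted p = 0.062), and DESeq2 without the block called it (adjusted p = 3.71e-05). Leaving 1 library out of the blocked edgeR fit gave calls of the 7 genes in that comparison in 3 of 8 cases. They were 4 genes without mesentery on chow of run A (Cyp26b1, Rbp7, Stra6 and Rbp4, beside 2.78% of all genes), 2 without mesentery on high fat diet of run A (Cyp26b1 and Rbp7, beside 0.381%) and 1 without mesentery on chow of run B (Cyp26b1, beside 0.763%).

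In adipose, Cyp26b1 was at 58.1 CPM (17 counts) and 23.9 CPM (96 counts) in arterial-like cells on chow and at 11.4 CPM (3 counts) and 1.07 CPM (3 counts) on high fat diet. Adipose capillary-like cells had 213.0 CPM (24 counts) and 26.1 CPM (399 counts) on chow and 8.62 CPM (2 counts) and 2.15 CPM (12 counts) on high fat diet. High fat diet was lower in every pair. In these comparisons 0.0375% of all genes were called in all endothelial cells, 0.299% in arterial-like and 1.25% in capillary-like cells. Since the change of Cyp26b1 was known, nothing is read from its count there. Of the other genes, Rbp4 was called in arterial-like cells, Rbp4 and Aldh1a1 in capillary-like cells, and 0 of 6 in all endothelial cells.

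Venous-like and lymphatic-like cells were described with no test. Mesenteric venous-like cells were at 173.0 and 508.4 CPM on chow and 138.0 and 59.1 CPM on high fat diet, a ratio of 1.25 in run A and 8.61 in run B. In the Adgrg6 cluster the runs went opposite ways, from 199.8 to 281.8 CPM in run A (500 and 37 cells) and from 769.2 to 77.5 CPM in run B (503 and 69 cells). Venous-like cells were 46.9% of endothelial cells in mesentery on chow of run A and 12.7% on high fat diet, beside 22.5% and 14.3% in run B. Mesenteric lymphatic-like cells went from 21.5 to 1.45 CPM and from 109.5 to 11.7 CPM, while adipose ones had 2, 0, 0 and 0 counts. Fibroblast-like cells of adipose went from 231.6 to 27.9 CPM and from 226.4 to 15.3 CPM, a difference of the same direction outside the endothelium on 42, 5, 45 and 7 counts.

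Between tissues on chow, Cyp26b1 was higher in mesentery in all endothelial cells (2.65 ± 0.36 on the log2 scale, edgeR with the block, adjusted p = 0.0416). The call was lost without each of the 4 adipose libraries in turn (adjusted p from 0.0577 to 0.603), with the change between 1.89 and 3.19. The Adgrg6 cluster, with 41.2% of the endothelial Cyp26b1 counts, held 500 and 503 cells in mesentery on chow against 1 and 18 in adipose on chow. Venous-like cells were 46.9% and 22.5% of the endothelial cells there against 19.4% and 10.6% in adipose. The part of this mix in the sums over all endothelial cells was not tested. Cyp26b1 was higher in arterial-like cells as well (2.26 ± 0.40, edgeR with the block, adjusted p = 0.00237), where Rbp4 was the other call and 0.929% of all genes were called. That difference was in run B (179.1 against 23.9 CPM) and was small in run A (64.6 against 58.1 CPM). It was lost without the mesenteric or the adipose chow library of run B (adjusted p = 0.966 and 0.953), with the difference at 0.27 and 0.47. With the block, DESeq2 and limma-voom did not call it (adjusted p = 1.0 and 0.0822), nor did edgeR in the larger arterial-like cluster alone (1.48, adjusted p = 0.633). In capillary-like cells it was called (1.81 ± 0.43, adjusted p = 0.0209, beside 0.278% of all genes), although run A went the other way, with 88.9 CPM in mesentery and 213.0 CPM in adipose. That call was lost without any 1 of the 4 libraries of run B (adjusted p from 0.0557 to 1), and without mesentery on chow or adipose on chow of that run the difference was -0.82 and -1.05. DESeq2 and limma-voom with the block did not call it (adjusted p = 1.0 in both), nor did edgeR in the Car4 cluster alone (adjusted p = 0.0651).

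On high fat diet 0 of the 7 genes were called between tissues in all endothelial cells (0% of all genes) and 0 of 4 in arterial-like cells (0.122%). In capillary-like cells Cyp26b1 was called (2.50 ± 0.57, adjusted p = 0.0179, beside 0.23% of all genes) on 0 and 77 counts in mesentery and 2 and 12 counts in adipose, and the call was lost without any 1 of the 4 libraries of run B. Without mesentery on high fat diet of run B the difference was -7.38 ± 12.9, and DESeq2 and limma-voom with the block did not call it (adjusted p = 1.0 in both). The test of whether the diet change differed between tissues called 0 of the genes other than Cyp26b1 in the 3 cell sets, beside 0% of all genes in all endothelial cells, 0.0332% in arterial-like and 0% in capillary-like cells. Cyp26b1 is not read there, since its adipose change enters that test. For Rbp7 the difference in all endothelial cells was 0.89 ± 0.27 with the block (adjusted p = 0.858).

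The receptors moved less. Rarg was found in arterial-like, capillary-like, venous-like and lymphatic-like cells of every library. In all endothelial cells it was at 27.0 and 53.2 CPM in mesentery on chow, 18.1 and 43.4 CPM on high fat diet, 28.9 and 50.3 CPM in adipose on chow and 27.6 and 35.8 CPM on high fat diet. The groups overlapped, and run A was below run B in each. The diet change was -0.40 ± 0.22 in mesentery (edgeR with the block, adjusted p = 0.631) and -0.26 ± 0.23 in adipose (adjusted p = 1), and the difference between tissues on chow 0.02 ± 0.22 (adjusted p = 0.995). Its level was 14.5 to 32.4 CPM in lymphatic-like cells and 18.4 to 69.4 CPM in arterial-like and capillary-like cells. Fibroblast-like cells had less on high fat diet in all 4 pairs of libraries, by 2.14-fold to 3.79-fold.

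Rarb, the receptor whose promoter holds the repeat, was sparse in endothelial cells at 3.15 to 6.55 CPM, and its counts are given with no fold change. There were 33 and 108 counts in mesentery on chow against 8 and 48 on high fat diet (6.32 and 6.55 against 3.15 and 3.73 CPM), and 9 and 96 against 8 and 51 in adipose (4.49 and 3.77 against 4.01 and 3.65 CPM). Mesentery on chow was above the other 6 libraries. Among the named endothelial classes the level was highest in lymphatic-like cells of mesentery on chow, at 17.7 and 24.7 CPM in mesentery on chow (14 and 30 counts) and 5.80 and 4.67 CPM on high fat diet (8 and 4 counts). Adipose lymphatic-like cells had 8.77 and 8.71 CPM on chow and 3.51 and 12.9 CPM on high fat diet, with the runs in opposite directions. After thinning, 1.27% of lymphatic-like cells held a count against 0.35% of arterial-like, 0.27% of venous-like and 0.19% of capillary-like cells, and 0 of 400 T cell-like cells did. Mesenteric fibroblast-like cells had Rarb too, at 16.9 and 23.1 CPM on chow (3 and 24 counts) and 0 and 23.8 CPM on high fat diet (0 and 7 counts).

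Of 59 other genes of retinoid handling and response, 38 passed the filter in all endothelial cells, 27 in arterial-like and 30 in capillary-like cells. Calls with the block were few. In all endothelial cells 1 gene of the list was called, Cyp1b1, a cytochrome P450 that can oxidise retinol. On chow Cyp1b1 was higher in mesentery (6.61 on the log2 scale, edgeR, adjusted p = 0.0454, beside 0.398% of all genes). It was at 114.2 and 174.5 CPM in mesentery on chow, 51.6 and 6.53 CPM on high fat diet and at most 2.49 CPM in adipose. Cyp1b1 was also among the leading genes of an unnamed endothelial cluster led by Marco and Stab2. Chow-fed mesentery held 59 (run A) and 219 (run B) cells of that cluster. The mesenteric high fat diet libraries held 12 and 2 of its cells, and each adipose library 0. The part of that cluster in the difference was not tested.

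In mesenteric arterial-like cells on high fat diet Fabp5, a lipid carrier that can also deliver retinoic acid, rose from 106.1 to 246.1 CPM and from 413.0 to 1108 CPM (1.37, edgeR with the block, adjusted p = 0.00259). Fabp5 also rose in adipose capillary-like cells, from 115.4 to 3195 CPM and from 1773 to 4687 CPM (2.76, edgeR with the block, adjusted p = 3.95e-09). The run A values rest on 13 and 741 counts. Adh1, an alcohol dehydrogenase that oxidises retinol, was lower in mesenteric than adipose arterial-like cells on chow (-1.94, edgeR with the block, adjusted p = 0.0112). Its levels were 4.61 and 11.9 CPM (1 and 20 counts) against 20.5 and 46.3 CPM (6 and 186 counts). The median change of the list lay between -0.17 and 0.14 on the log2 scale over the 15 fits, beside -0.04 to 0.02 for all genes, and 0 genes of the list were called in the fits not named here.

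The genes with the most similar patterns were sought over 32 profiles (4 endothelial classes by 8 libraries), by Pearson correlation of log2(CPM + 10) centred within each run, among 8482 genes. The profiles share libraries, so these values are descriptions. Nearest to Rbp7 were Map4k3 (r = 0.934), Notch4 (0.926), a receptor of arterial endothelium, and Crybg1 (0.916). Nearest to Rbp4 were 2 of the adipocyte markers, Retn (0.966) and Adipoq (0.965), and Nnat (0.931), a leading gene of the adipocyte-like cluster. Nearest to Cyp26b1 were Cyp1a1 (0.711), a cytochrome P450 induced through the aryl hydrocarbon receptor, Lifr (0.703) and Extl3 (0.684). Nearest to Rarg were Cyp2d22 (0.814), Epb41 (0.734) and Lpar6 (0.734). Between members the highest value was 0.476 (Rbp4 and Rarg), and Rbp7 and Cyp26b1 were at -0.128.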

How the data were processed

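The authors deposited raw counts of unique molecules per gene and cell, with software versions 3.0.2 (run A) and 5.0.0 (run B) per the file headers; mm10 and Seurat 4.3.0 are named in the submitters' processing notes. The 7 genes, the wider retinoid list and the markers were chosen with earlier results of these data known. The genes shared by both runs were used. Doublets were scored against simulated ones and removed at an expected 0.8% per 1000 cells. Cells were clustered on 2000 variable genes and 30 components after run integration (Leiden, leidenalg 0.10.2, resolution 1.0), without the retinoid genes. Names ending in -like rest on markers, with limits set after the clusters were seen, and may differ from the study's own. Counts were summed per library and class and tested with edgeR 4.0.16 (TMM, filterByExpr, 1 mean per group). DESeq2 1.42.0 and limma 3.58.1 were alternatives, all in R 4.3.3. Only edgeR without the block was checked on simulated data. Those data held no difference between runs, so the check does not bear on the calls of the blocked fit. Same-run libraries deviated together in all 6 pairs of groups (r from 0.57 to 0.73 over genes in all endothelial cells, 0.48 to 0.58 in arterial-like and 0.24 to 0.35 in capillary-like cells), and the labels give a repeated experiment, so runs were taken as pairs. All 7 genes are described. A log2 change is given where 1 group's mean reached 10 CPM, called genes of the wider list are named except 1 result that is not reported here, and the 3 most correlated genes are named for each of the 7 with a mean of at least 10 CPM.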

Additional observations from a re-analysis of the deposited data

How the results depend on the processing

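With 2 pools per group and run A shallower, only large changes could be called, and many calls rest on run B. Below, calls of the 7 genes are counted in the order diet in mesentery, diet in adipose, tissue on chow, tissue on high fat diet and their interaction. Cyp26b1 is left out of the counts for diet in adipose. The share of all genes called is given above for edgeR without and with the block. Where another setting stands without that share, its count is not read as a result about the 7 genes. Against 0 calls without the block, the replicate block gave 0, 0, 2, 0 and 0 in all endothelial cells. In arterial-like cells it gave 2, 1, 2, 0 and 0, and in capillary-like cells 2, 2, 1, 1 and 0. Without the block, DESeq2 gave 1, 0, 1, 1 and 0 in all endothelial cells. No filter on low counts gave 1, 0, 0, 0 and 0 in arterial-like and 2, 1, 0, 0 and 0 in capillary-like cells. Other scaling (RLE), limma-voom, doublets kept, a 20% mitochondrial limit, resolution 2.0, other endothelial sets and each left-out library gave 0 without the block.

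These settings were added after seeing the data, all with the block. DESeq2 gave 2, 1, 3, 1 and 0 in all endothelial cells and 1 for diet in mesentery in arterial-like cells. With limma-voom there was 1 for tissue on chow in all endothelial cells and 2 for diet in mesentery in arterial-like cells. Doublets kept gave 0, 0, 2, 0 and 0, then 3, 1, 1, 0 and 0, then 2, 2, 1, 1 and 0 in the 3 cell sets. The 20% limit gave 0, 0, 2, 0 and 0, then 2, 0, 1, 0 and 0, then 2, 2, 1, 1 and 0. Resolution 2.0 gave 2, 0, 2, 0 and 0, then 2, 1, 1, 0 and 0, then 2, 1, 1, 1 and 0. Named endothelial clusters alone gave 2, 0, 2, 0 and 0, and with the mixed clusters 0, 0, 2, 0 and 0. The largest cluster alone gave 1 for diet in adipose in arterial-like cells and 2, 1, 0, 2 and 0 in capillary-like cells. Leaving out each library gave 0 to 4, 0 to 3, 0 to 3, 0 to 1 and 0 in all endothelial cells, 0 to 3, 0 to 2, 0 to 3, 0 and 0 in arterial-like, and 0 to 2, 0 to 3, 0 to 1, 0 to 2 and 0 in capillary-like cells. Why the counts differ between settings was not tested. The counts for the interaction include Cyp26b1, whose fall in adipose was known, and nothing is read from them. Against the fit without the block, which called 0, 66 of 1179 recomputed log2 changes had another sign. The 1179 include those of Cyp26b1 in adipose, so the number that became called is not given. Against the fit with the block, 7 of 98 refits of its called differences without 1 library turned sign, none of them called. All 7 left out a run B library and concerned Rbp4 on diet or Cyp26b1 between tissues in capillary-like cells, or Rbp4 on diet in adipose arterial-like cells.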
